A study of Homo sapiens with 10 samples.

Results

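Transcript levels of 10 oxidative stress genes were followed in SKBR3 cells: TXNRD1, TXN, TXNIP and SRXN1 of the thioredoxin system, NQO1, HMOX1 and AKR1B10, which encode detoxifying enzymes, GCLC and GCLM, the subunits of the enzyme that starts glutathione synthesis, and ABCC3, an export pump. The genes were chosen by name, with earlier results of these data known, so their shares beside those of all genes are descriptive. All 24 of their probe sets that carry 1 gene symbol were included, of 41091 such probe sets for 19775 genes on the array. Of the 24, 21 lay in the upper 50% of probe sets by mean signal (above 35.3), and 1 each of TXNRD1, GCLC and ABCC3 lay under that limit and were not tested. Each gene was represented by its brightest probe set, and all 10 were among the 12034 genes tested.

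The 10 samples were hybridised to 10 single-channel Affymetrix arrays, 5 per siRNA. SKBR3 is a breast carcinoma cell line with amplified HER2 and mutant p53. All samples were kept in charcoal-stripped serum and received siRNA, directed either at p53 (p53i) or, as the negative control, at LacZ of bacteria (LacZi). For each siRNA, 2 arrays came from untreated cells and 1 array each from cells given 100 nM D3 (calcitriol, the hormone made from vitamin D3) for 8, 20 and 50 h. The sample text starts D3 24 h and the series text 48 h after transfection. The model is 1 cell line, the fall of the siRNA's own target was not analysed here, and no harvest time is labelled for the untreated arrays, so in any comparison with untreated cells the effects of D3 and of longer culture cannot be told apart. The 50 h arrays were also further from transfection than the 8 h arrays, so the comparison of these times has the same limit. The untreated arrays are labelled biological replicates. Nothing states separate cultures for the D3 arrays, so p-values measure the spread between these samples, which may be technical.

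As background, NRF2 (gene NFE2L2) is a transcription factor that KEAP1 marks for degradation. Oxidants and electrophiles disable KEAP1, and NRF2 then binds antioxidant response elements together with small MAF proteins and drives genes of glutathione synthesis, thioredoxin recycling and drug metabolism. Thioredoxin (TXN) reduces protein disulfides, thioredoxin reductase (TXNRD1) recycles it with NADPH, and TXNIP binds reduced thioredoxin and also curbs glucose uptake. TXNIP transcription depends on MondoA and its partner MLX at paired E boxes called carbohydrate response elements, and the gene was first described as a transcript that calcitriol raised in a leukaemia line. In breast carcinoma cells TXNIP is best known as a glucose-responsive brake on glucose uptake, and NRF2 targets as defences against oxidants and drugs.

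Promoter sequence was available for 7 of the 10 genes, in 9 RefSeq windows (GRCh38.p14) that run from 250 bases before to 10 bases after a transcript start. The 4 windows with a motif match are printed 5′ to 3′ on the gene's strand with the match in capitals. They are shown for the match, and TXNIP window 1, which held none, is not printed. Of these genes, TXNRD1 and TXNIP were called in opposite directions at 50 h, and GCLM was called between the siRNAs. TXNRD1 window 1 is chr12:104215529-104215788 and window 2 is chr12:104286782-104287041, both on the plus strand, TXNIP window 2 is chr1:145996570-145996829 on the minus strand, and the GCLM window is chr1:93909421-93909680 on the minus strand.
TXNRD1 window 1: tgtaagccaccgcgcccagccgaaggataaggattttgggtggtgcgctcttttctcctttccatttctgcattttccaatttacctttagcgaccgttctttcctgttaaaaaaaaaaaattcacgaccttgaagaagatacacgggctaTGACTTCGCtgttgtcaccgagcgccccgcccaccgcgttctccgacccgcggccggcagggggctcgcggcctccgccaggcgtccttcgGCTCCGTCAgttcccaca
TXNRD1 window 2: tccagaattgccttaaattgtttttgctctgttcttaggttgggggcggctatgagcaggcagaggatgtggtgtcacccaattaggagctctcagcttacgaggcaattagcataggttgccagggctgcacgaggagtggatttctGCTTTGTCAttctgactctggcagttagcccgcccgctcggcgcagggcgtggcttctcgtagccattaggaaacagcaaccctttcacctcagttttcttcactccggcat
TXNIP window 2: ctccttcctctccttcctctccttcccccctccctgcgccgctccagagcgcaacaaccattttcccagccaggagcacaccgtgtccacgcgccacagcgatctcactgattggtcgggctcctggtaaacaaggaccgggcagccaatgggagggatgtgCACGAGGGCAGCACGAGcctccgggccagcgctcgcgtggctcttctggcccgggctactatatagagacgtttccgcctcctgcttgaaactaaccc
GCLM: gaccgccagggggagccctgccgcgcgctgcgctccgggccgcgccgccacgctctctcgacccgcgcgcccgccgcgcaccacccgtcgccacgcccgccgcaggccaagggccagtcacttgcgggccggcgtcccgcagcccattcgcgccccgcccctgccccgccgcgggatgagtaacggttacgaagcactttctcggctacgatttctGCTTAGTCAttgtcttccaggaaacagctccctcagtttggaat
The core of the antioxidant response element, searched as TGACNNNGC on both strands, was found in 3 of the 9 windows and in 11.6% of 35116 promoter windows of the same length. TXNRD1 window 1 held it as TGACTTCGC starting 99 bases before the start and, on the other strand, as GCTCCGTCA starting 8 bases before it. TXNRD1 window 2 held GCTTTGTCA starting 102 bases before the start, and the GCLM window held GCTTAGTCA starting 34 bases before it. A carbohydrate response element, searched as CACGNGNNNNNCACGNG on both strands, was found in TXNIP window 2 as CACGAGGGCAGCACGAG starting 88 bases before the start, and in 0.0513% of all windows (18 of 35116). The single E box CACGTG was in 6.6% of windows and in none of the 9. These matches describe the letters of the reference and are not evidence of binding. No window was used here for HMOX1, AKR1B10 or ABCC3.

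The deposited MAS5 intensities had been scaled to a trimmed mean of 200 on every array (2% left out at each end), and median signals were 35.7 to 44.3. The ACTB ratio (control probe sets at the 3′ end of ACTB over those at its 5′ end), which climbs when RNA is fragmented or labelling is incomplete, was 3.79 to 8.72. Its highest values were on the second untreated p53i array (8.72) and the p53i 20 h array (7.11). The luminal markers ERBB2, KRT8, KRT18 and KRT19 had lowest signals of 12690, 9728, 17758 and 18438, while CDH1 lay under the limit at 2.80 to 23.9. Of the markers of fibroblasts, leukocytes, endothelium and hepatocytes, COL1A1, CD3E and PECAM1 lay above the limit, and none was called over D3 time or between the siRNAs. All 6 luminal markers tested lay above 0 with p53i against LacZi (median 0.26), with KRT8 (0.42, adjusted p = 0.00403) and GRB7 (0.38, adjusted p = 0.0325) called, and their part in the differences between the siRNAs was not tested.

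The first comparison asked whether the redox genes moved between 8 and 50 h with D3. Signals come from whole cultures, so fewer cells with a transcript and less of it per cell cannot be told apart. None of the 10 passed the test, although 9 of the 10 fitted differences lay above 0 and their median was 0.35 on the log2 scale against -0.01 for all genes. The test called 16 of 12034 genes (0.133%), so few genes of any kind passed it with 2 arrays at each time. At an unadjusted p under 0.05, 4 of the 10 (TXNRD1, GCLC, AKR1B10 and ABCC3) and 9.62% of all genes lay past the threshold. For 5 genes (TXNRD1, SRXN1, GCLC, AKR1B10 and ABCC3) both 50 h signals exceeded both 8 h signals, a pattern of 16.8% of all genes, and for none were both under, against 20.3%. For 4 of these (TXNRD1, GCLC, AKR1B10 and ABCC3) the signal was higher at each step from 8 to 20 to 50 h with either siRNA, against 5.74% of all genes, and no member was lower at each step, against 6.86%.

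**Figure D1:**
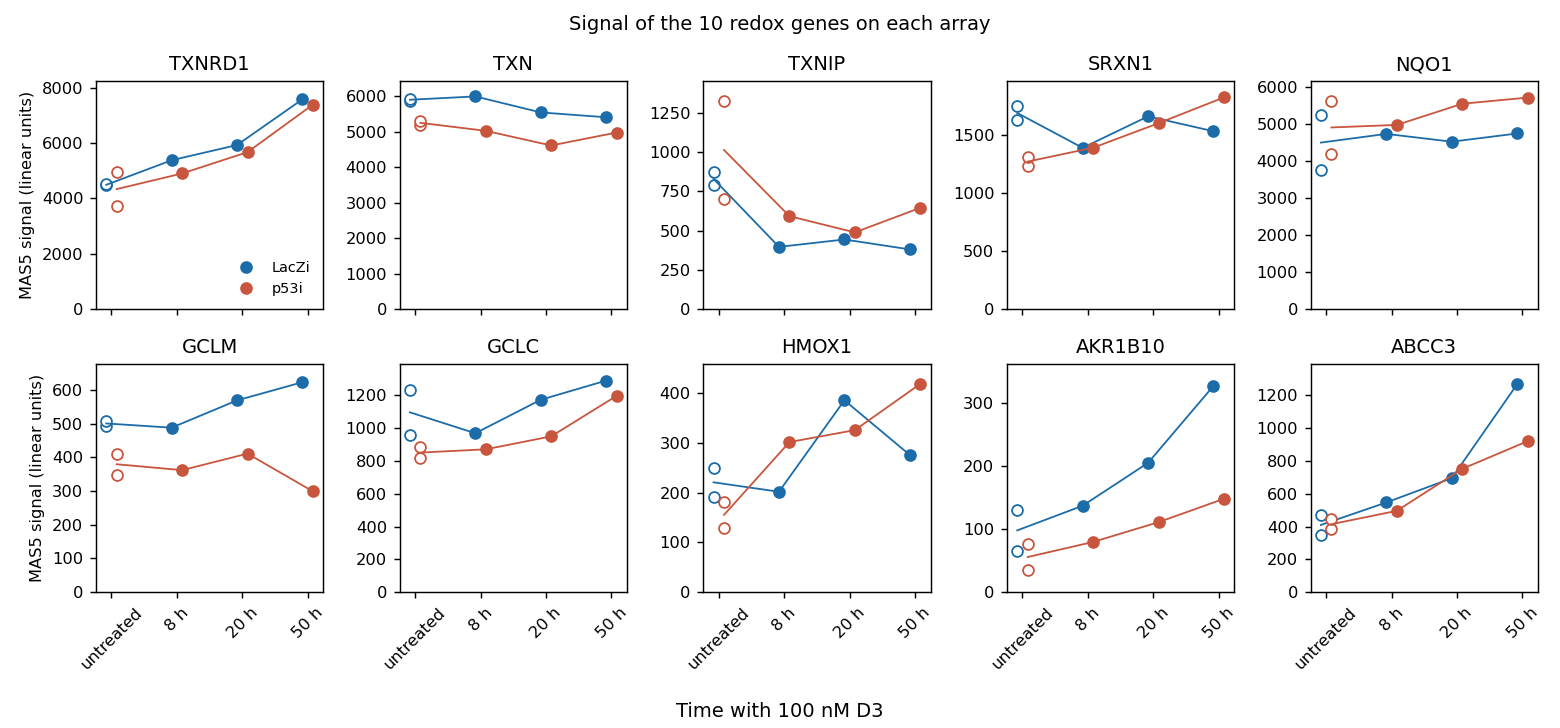
MAS5 signal on a linear scale for the 10 genes on each of the 10 arrays, against time with 100 nM D3, LacZi in blue and p53i in red. Open circles are the 2 untreated arrays of each siRNA, filled circles single D3 arrays, and lines start at the mean of the untreated arrays. ABCC3 ends at 1268 and 921, TXNIP lies at 645 or lower on all 6 D3 arrays, and TXN is lower with p53i at every condition.

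TXNRD1, the cytosolic selenoenzyme that recycles thioredoxin, had signals of 4477 and 4508 on the untreated LacZi arrays and 5378, 5927 and 7576 after 8, 20 and 50 h. With p53i they were 4941 and 3734 untreated and 4902, 5670 and 7385 with D3. The order over the D3 times was the same with both siRNAs. The 50 h arrays lay above all others and the 20 h arrays above all untreated and 8 h arrays, while the 8 h and untreated signals overlapped. The difference between 50 and 8 h was 0.54 ± 0.12 on the log2(signal + 16) scale (SE, adjusted p = 0.148), or 1.41-fold with LacZi and 1.51-fold with p53i. Against untreated cells it was 0.22 ± 0.11 at 8 h (adjusted p = 0.667), 0.40 ± 0.11 at 20 h (adjusted p = 0.120) and 0.77 ± 0.11 at 50 h, where TXNRD1 passed the test (adjusted p = 0.00287). Without the p53i 50 h array that call was lost (0.74, adjusted p = 0.0766). Its other probe set had signals of 1.89 to 16.7, under the limit, and the mean of both probe sets was not called (0.36, adjusted p = 0.208).

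TXN, the substrate of that enzyme, was not called in any comparison of the main fit. Between the siRNAs it was called with quantile-normalized values and with the replicate number of the untreated arrays as a block. Its signals with LacZi were 5870 and 5935 untreated and 5997, 5546 and 5410 with D3, and with p53i 5203 and 5302 untreated and 5028, 4615 and 4980 with D3. All 5 p53i arrays lay under all 5 LacZi arrays. The fitted change from 8 to 50 h was -0.08, with a 95% interval of -0.29 to 0.12, narrower than that of any other member. SRXN1, sulfiredoxin, which repairs overoxidised peroxiredoxins, had LacZi signals of 1633 and 1747 untreated and 1390, 1661 and 1533 with D3, and p53i signals of 1231 and 1313 untreated and 1391, 1602 and 1824 with D3. It was higher at each step with p53i and showed no such order with LacZi, and the difference between 50 and 8 h was 0.26 ± 0.16 (adjusted p = 0.644).

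TXNIP, the inhibitor of thioredoxin, moved against TXNRD1 when set beside untreated cells, and neither gene was called between 8 and 50 h. Its brightest probe set gave 870 and 787 on the untreated LacZi arrays and 397, 444 and 381 after 8, 20 and 50 h, and with p53i 1321 and 703 untreated and 592, 489 and 645 with D3. All 6 D3 arrays lay under all 4 untreated arrays, a pattern that 2.47% of all genes shared. The difference stood at -0.86 ± 0.21 at 8 h (adjusted p = 0.249) and -0.91 ± 0.21 at 20 h (adjusted p = 0.0899) and was called at 50 h (-0.83 ± 0.21, adjusted p = 0.0479), a signal 1.78-fold lower. From 8 to 50 h the difference was 0.03, with a 95% interval of -0.50 to 0.56 (adjusted p = 0.983).

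The untreated p53i arrays differed by 0.89 for TXNIP, about as much as the fitted differences between D3 and untreated cells, and the lower of the 2 (703) was the array with the ACTB ratio of 8.72. With that ratio as a covariate the 50 h difference was -0.74 (adjusted p = 0.0120), and without the arrays with the highest ratios it was -1.05 (adjusted p = 0.00242). Without the second untreated p53i array TXNIP was called at 8 h (-1.06, adjusted p = 0.0109) and 20 h (-1.12, adjusted p = 0.00621) too. The call at 50 h was lost in 9 of 10 fits that left out 1 array, with differences of -1.06 to -0.60. Over the 3 D3 times together, a comparison added after the values were seen, TXNIP stood at -0.87 ± 0.16 (adjusted p = 0.0135) and lost the call without the first untreated LacZi array (-0.81, adjusted p = 0.0563) or the p53i 20 h array (-0.82, adjusted p = 0.0511).

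The other 2 TXNIP probe sets, fitted with all 22046 probe sets tested, had larger differences at 50 h. For the next brightest (set 2) the signals were 964 and 647 untreated and 325, 356 and 304 with D3 with LacZi, and 1640 and 943 untreated and 635, 459 and 325 with D3 with p53i, a difference of -1.61 ± 0.23 (adjusted p = 0.00568). For the dimmest (set 3) the LacZi signals were 363 and 284 untreated and 101, 182 and 100 with D3, and the p53i signals 296 and 175 untreated and 214, 220 and 118 with D3, a difference of -1.20 ± 0.29 (adjusted p = 0.0553). The second untreated p53i array, at 175, lay under 2 of the p53i D3 arrays for this probe set. From 8 to 50 h these probe sets stood at -0.51 (adjusted p = 0.638) and -0.39 (adjusted p = 0.801), against 0.03 for the brightest, so the 3 did not share a sign over that step and none was called.

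**Figure D2:**
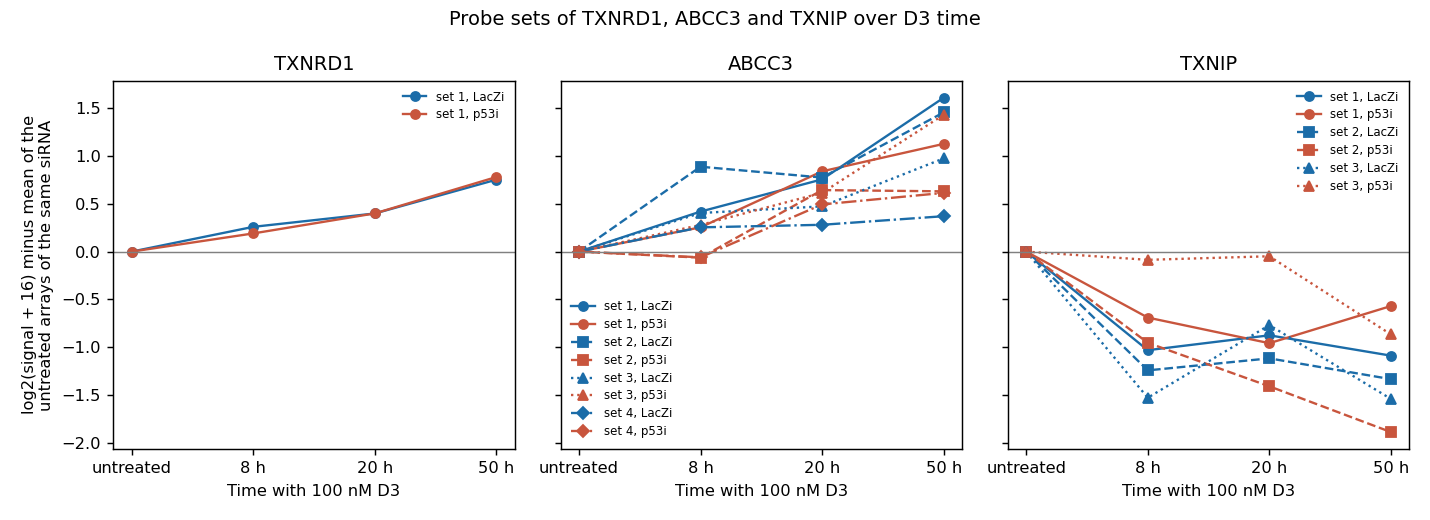
Change of log2(signal + 16) from the mean of the untreated arrays of the same siRNA, for the probe sets of TXNRD1, ABCC3 and TXNIP above the signal limit (numbered from the brightest), over untreated, 8, 20 and 50 h with D3, each point 1 array (untreated is 0 by construction). The TXNIP lines lie well under 0 by 8 h except that of set 3 with p53i, which stays near 0 until 20 h, and the TXNRD1 and ABCC3 lines lie above 0 at 50 h.

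NQO1, a quinone reductase and a classical NRF2 target, was not called in any comparison. Its LacZi signals were 3753 and 5233 untreated and 4727, 4517 and 4738 with D3, and its p53i signals 4198 and 5603 untreated and 4969, 5538 and 5705 with D3. The untreated replicates of each siRNA were further apart than any D3 times, and the difference between 50 and 8 h was 0.10, with a 95% interval of -0.25 to 0.45. The other 2 probe sets of NQO1 gave 0.07 (adjusted p = 0.950) and 0.11 (adjusted p = 0.914) for that step.

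HMOX1, haem oxygenase, which degrades haem, had LacZi signals of 192 and 250 untreated and 202, 386 and 276 with D3. With p53i they were 181 and 130 untreated and 302, 326 and 419 with D3. All 3 p53i D3 arrays exceeded all untreated arrays, whereas with LacZi the 8 h array did not and 20 h was the highest. The differences from untreated cells were 0.40 ± 0.25 at 8 h (adjusted p = 0.798), 0.89 ± 0.25 at 20 h (adjusted p = 0.131) and 0.83 ± 0.25 at 50 h (adjusted p = 0.0808), and from 8 to 50 h the value was 0.44 ± 0.29 (adjusted p = 0.685). With the ACTB ratio as a covariate HMOX1 was called at 50 h (0.91, adjusted p = 0.0271), as it was without the second untreated LacZi array (0.99, adjusted p = 0.0420).

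AKR1B10, an aldo-keto reductase that reduces aldehydes and retinal, had the widest spread among the brightest probe sets of the members, with an SD of 0.78 on the log2 scale over the 10 arrays (0.12 for TXN). Its LacZi signals were 64.9 and 131 untreated and 137, 205 and 327 after 8, 20 and 50 h, and its p53i signals 35.4 and 76.0 untreated and 79.6, 111 and 148 with D3. Each siRNA's D3 arrays lay above its own untreated arrays and in the order of time, and every p53i signal lay under the LacZi signal of the same D3 time. The step from 8 to 50 h was 0.97 ± 0.33 (adjusted p = 0.373), or 2.38-fold with LacZi and 1.86-fold with p53i. Against untreated cells AKR1B10 was called at 50 h (1.45 ± 0.28, adjusted p = 0.0161), 2.74-fold on that scale, and stood at 0.95 ± 0.28 at 20 h (adjusted p = 0.152). The call was lost without the LacZi 50 h array (1.27, adjusted p = 0.153), without the p53i 50 h array (1.63, adjusted p = 0.140) and with no intensity trend (1.45, adjusted p = 0.0612).

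The subunits of glutamate-cysteine ligase, GCLC, which holds the active site, and GCLM, which lowers the concentration of glutamate the enzyme needs, differed in their order over time. GCLC signals with LacZi were 961 and 1232 untreated and 969, 1173 and 1290 with D3, and with p53i 885 and 817 untreated and 871, 950 and 1197 with D3. The highest value with each siRNA was at 50 h, the step from 8 to 50 h was 0.43 ± 0.14 (adjusted p = 0.370), and the difference from untreated cells was 0.36 ± 0.12 (adjusted p = 0.119), called only without the second untreated LacZi array (0.45, adjusted p = 0.0450). A second GCLC probe set gave 0.20 (adjusted p = 0.818) and -0.03 (adjusted p = 0.951) for these comparisons. GCLM signals with LacZi were 493 and 508 untreated and 488, 569 and 623 with D3, and with p53i 410 and 349 untreated and 362, 411 and 299 with D3. The GCLM value at 50 h was the highest with LacZi and the lowest with p53i, and the fitted step from 8 to 50 h was 0.04, with a 95% interval of -0.35 to 0.43.

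ABCC3, a membrane pump that exports glutathione and glucuronide conjugates and bile salts, had the smallest p of the members at 20 and 50 h against untreated cells. Its LacZi signals were 473 and 347 untreated and 547, 695 and 1268 after 8, 20 and 50 h, and its p53i signals 384 and 445 untreated and 496, 752 and 921 with D3. All 6 D3 arrays exceeded all 4 untreated arrays, a pattern of 1.88% of all genes, and the order of time held with both siRNAs. From 8 to 50 h the difference was 1.03 ± 0.18 (2.32-fold with LacZi and 1.86-fold with p53i), with an adjusted p of 0.0646 just outside the threshold, and 0.0406 without the second untreated p53i array. ABCC3 was called against untreated cells at 20 h (0.80 ± 0.16, adjusted p = 0.0465) and at 50 h (1.37 ± 0.16, adjusted p = 7.91e-04, 2.58-fold), and stood at 0.33 ± 0.16 at 8 h (adjusted p = 0.667). The call at 20 h remained in 1 of 10 fits that left out 1 array, whereas the call at 50 h remained in all 10, with differences of 1.13 to 1.60.

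Among the other ABCC3 probe sets, the third (1.20 ± 0.18, adjusted p = 0.00793) and the second in brightness (1.04 ± 0.22, adjusted p = 0.0287), the latter with probes that may bind other transcripts too, were also called at 50 h against untreated cells. The fourth, whose probes may also bind other transcripts, was not (0.49 ± 0.18, adjusted p = 0.180), with signals of 150 to 271 over the 10 arrays. The dimmest lay under the limit, with untreated signals of 6.67 to 17.7 and 50 h signals of 30.2 and 51.1. Over all member probe sets, 5 were called higher and 1 lower at 50 h of the 21 tested, against 512 of 22046 (2.32%) in either direction, and none from 8 to 50 h.

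Set against untreated cells, then, the members called were TXNRD1, AKR1B10 and ABCC3 higher and TXNIP lower at 50 h, where 518 genes (4.30%) were called. By direction the shares of all genes were 1.83% higher and 2.48% lower, so that 42.5% of calls were higher, or 21.8% where arrays were centred on their median, which lowered the median difference of all genes to -0.11 and left these 4 members called in the same directions. The median of the 10 members was 0.28, against -0.01 for all genes, with 7 above 0. At 20 h ABCC3 was the 1 member called, where 71 genes (0.590%) were, and at 8 h no member was called, where 21 genes (0.175%) were. TXNRD1, HMOX1, AKR1B10 and ABCC3 had both 50 h signals above all untreated signals, against 9.62% of genes, and TXNIP had both under them, against 12.1%. Over the 3 times together, where 529 genes (4.40%) were called, the same 4 members were called (1.99% of all genes higher and 2.41% lower), with TXNRD1 at 0.46 ± 0.08 (adjusted p = 0.0109), AKR1B10 at 0.96 ± 0.21 (adjusted p = 0.0281) and ABCC3 at 0.83 ± 0.12 (adjusted p = 0.00308). Leaving out 1 array kept the calls of TXNRD1 and ABCC3 in all 10 fits and that of AKR1B10 in 2 (0.78 to 1.15). With probe-set means TXNRD1 was not called (0.21, adjusted p = 0.330), nor was AKR1B10 with no filter (0.96, adjusted p = 0.0584), and HMOX1 gained a call with the ACTB covariate (0.79, adjusted p = 0.0162).

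**Figure D3:**
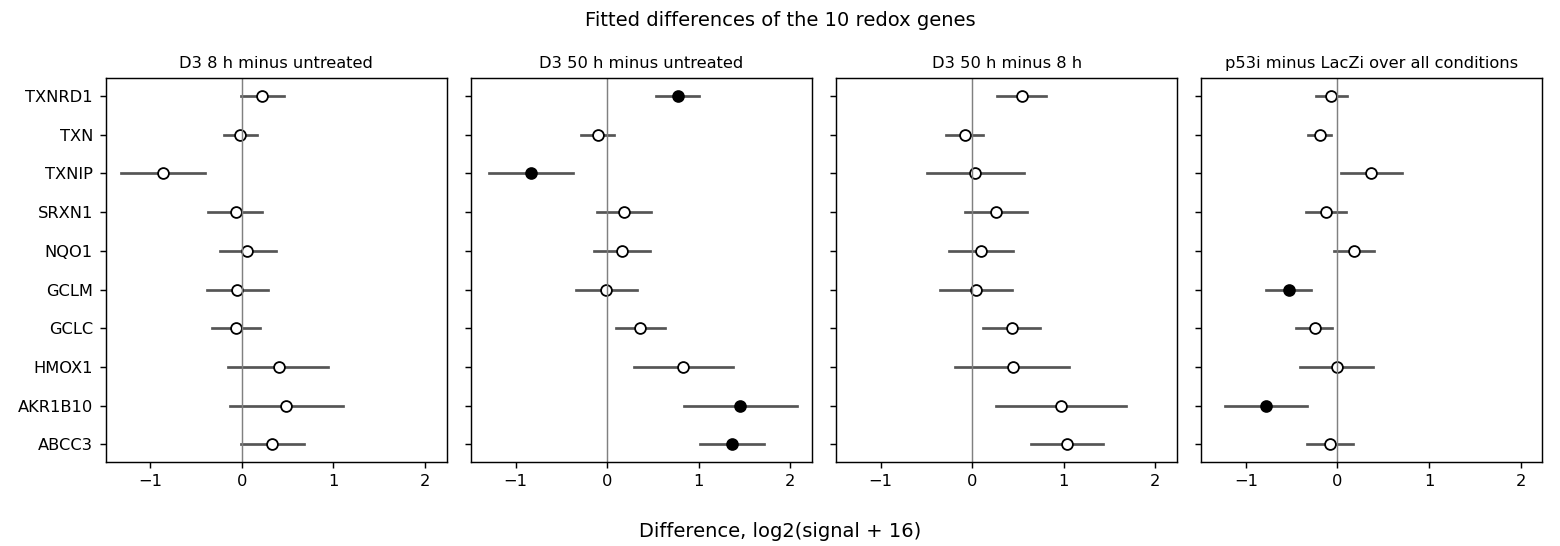
Fitted differences of log2(signal + 16) for the 10 genes in 4 comparisons, with 95% intervals as bars and filled points where the adjusted p passed the threshold. The filled points are TXNRD1, TXNIP, AKR1B10 and ABCC3 at 50 h against untreated cells and GCLM and AKR1B10 between the siRNAs, with none from 8 to 50 h.

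The early and late steps shared no arrays other than those at 8 h, which enter them with opposite signs. TXNIP stood at -0.86 in the early step and 0.03 in the late step, whereas ABCC3 stood at 0.33 and 1.03, AKR1B10 at 0.48 and 0.97, and TXNRD1 at 0.22 and 0.54. GCLC stood at -0.07 and 0.43. None of these steps passed the test, the other TXNIP probe sets stood at -0.51 and -0.39 in the late step, and a difference in timing between genes was not tested.

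**Figure D4:**
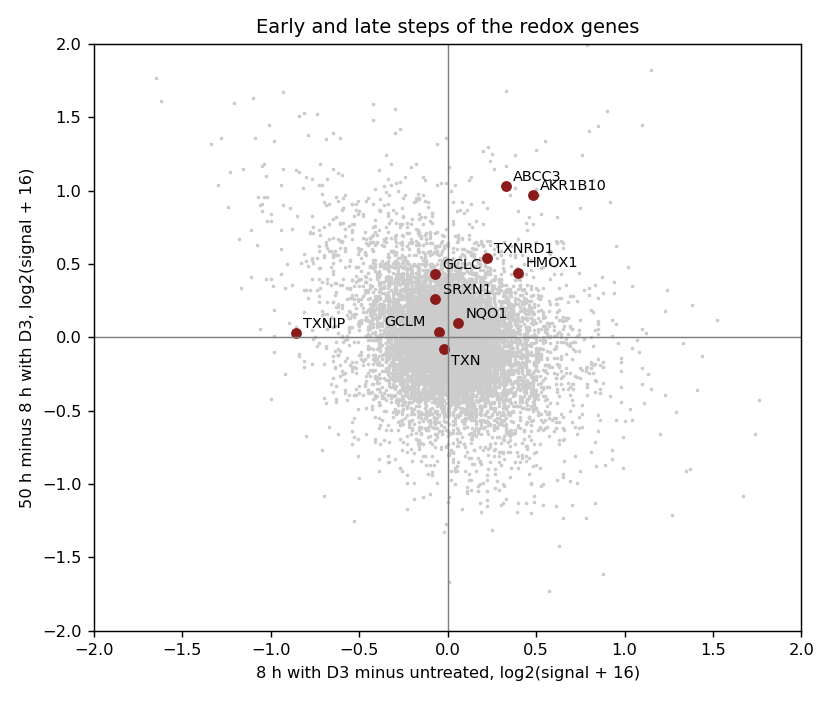
Difference between 8 h with D3 and untreated cells (horizontal) against the difference between 50 and 8 h with D3 (vertical), both on the log2(signal + 16) scale, for 12025 of 12034 genes (grey, with 9 outside the axes) and the 10 redox genes (red). The 8 h arrays enter both axes with opposite signs, which tilts the grey cloud, and TXNIP sits at -0.86 and 0.03, away from ABCC3 at 0.33 and 1.03.

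Between the siRNAs, over all conditions, GCLM and AKR1B10 were called lower with p53i, where 781 genes (6.49%) were called, 3.11% of all genes lower and 3.38% higher. GCLM signals were 488 to 623 on the 5 LacZi arrays and 299 to 411 on the 5 p53i arrays, with no overlap, a difference of -0.53 ± 0.11 (adjusted p = 0.0193), or 1.45-fold lower. TXN showed the same separation (-0.19 ± 0.06, adjusted p = 0.0709) and was called under quantile normalization (-0.21, adjusted p = 0.0238), and 3.30% of all genes had all 5 p53i arrays under all 5 LacZi arrays, while no member and 3.09% of genes had them all above. AKR1B10 signals overlapped, and its difference was -0.78 ± 0.21 (adjusted p = 0.0463). TXNIP stood at 0.37 ± 0.15 (adjusted p = 0.171), GCLC at -0.25 ± 0.09 (adjusted p = 0.115) and NQO1 at 0.18 ± 0.10 (adjusted p = 0.329). Of all calls 52.1% were higher, or 72.6% where arrays were centred on their median, and there GCLM (-0.49, adjusted p = 0.0521) and AKR1B10 (-0.73, adjusted p = 0.0592) were not called.

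The ACTB ratio differed between the siRNAs, at 3.79 to 5.05 with LacZi and 4.39 to 8.72 with p53i. With the ratio as a covariate GCLM stood at -0.47 (adjusted p = 0.164), AKR1B10 at -1.02 (adjusted p = 0.0968) and TXNIP at 0.72, now called (adjusted p = 0.0334), while 94 genes were called in place of 781. GCLM lost its call without any 1 of the 20 h or 50 h arrays (-0.55 to -0.41), and AKR1B10 kept it in 2 of 10 fits that left out 1 array (-0.93 to -0.66). Without the second untreated p53i array TXNIP was called (0.53, adjusted p = 0.0156). The other 2 GCLM probe sets stood at -0.36 (adjusted p = 0.177) and -0.51 (adjusted p = 0.147).

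Whether the step from 8 to 50 h differed between the siRNAs was tested in a model with a mean for each of the 8 groups, which leaves 2 residual degrees of freedom. No member and no other gene was called (0% of 12034 by limma, 266 or 2.21% at an unadjusted p under 0.05). The member with the smallest p was GCLM, at -0.61 with a 95% interval of -1.42 to 0.20. TXNIP stood at 0.18, with an interval of -1.06 to 1.42, and ABCC3 at -0.32, with an interval of -1.22 to 0.58. Differences of about the size of the fitted changes over D3 time therefore lie inside these intervals.

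The members were set beside other genes of the same pathways. For 31 other NRF2 targets tested, the median from 8 to 50 h was 0.14, against -0.01 for all genes. Of them 0 were called higher and 1 lower, against 0.133% of all genes in either direction. That gene was GSR, glutathione reductase, which regenerates glutathione with NADPH. Its signals with LacZi were 865 and 702 untreated and 1073, 976 and 510 with D3, and with p53i 989 and 931 untreated and 901, 824 and 380 with D3. Both 50 h arrays lay under all others, a step of -1.13 ± 0.19 (adjusted p = 0.0453) and of -0.95 ± 0.16 against untreated cells (adjusted p = 0.00913). The call from 8 to 50 h remained in 3 of 10 fits that left out 1 array and in 3 of 13 other settings, with adjusted p of 0.0521 (ACTB covariate) to 0.247 (no intensity trend) in the rest, and a second GSR probe set stood at -0.30 (adjusted p = 0.723).

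At 50 h against untreated cells 1 of the 31 was called higher and 2 lower, against 1.83% and 2.48% of all genes. Their median was 0.10, against -0.01 for all genes. MGST1, a microsomal glutathione transferase, rose by 0.64 ± 0.12 (adjusted p = 0.0145), and EPHX1, an epoxide hydrolase, fell by 0.64 ± 0.13 (adjusted p = 0.0197), along with GSR. Without the p53i 50 h array none of the 3 was called, at 0.48 (adjusted p = 0.263), -0.57 (adjusted p = 0.268) and -0.73 (adjusted p = 0.215), and EPHX1 was also lost without the first untreated (-0.59, adjusted p = 0.0600) or the 50 h LacZi array (-0.71, adjusted p = 0.0983). The other MGST1 probe sets stood at 0.61 (adjusted p = 0.0275), 0.39 (adjusted p = 0.148) and 0.33 (adjusted p = 0.532) at 50 h. Between the siRNAs 3 of the 31 were called higher and 3 lower with p53i, against 3.38% and 3.11% of all genes. Those higher were BLVRA, biliverdin reductase, the enzyme that follows haem oxygenase (0.87 ± 0.09, adjusted p = 4.86e-04), the glutathione transferase GSTM3 (0.43 ± 0.07, adjusted p = 0.00607) and EPHX1 (0.50 ± 0.10, adjusted p = 0.0136). Those lower were PGD, UGDH and CBR1. BLVRA signals were 1544 to 2058 with LacZi and 2824 to 3465 with p53i, with no overlap, a pattern in that direction of 3.09% of all genes. Its call held in all 10 fits that left out 1 array and with the ACTB ratio as a covariate (0.77, adjusted p = 0.0127). With that covariate GSTM3 (0.37, adjusted p = 0.0754) and EPHX1 (0.52, adjusted p = 0.0820) were not called between the siRNAs. The other BLVRA probe sets stood at 0.70 (adjusted p = 0.00471), 0.36 (adjusted p = 0.123) and 0.20 (adjusted p = 0.592) between the siRNAs. The brightest BLVRA probe set and that at 0.70 have probes that may bind other transcripts too. A second GSTM3 probe set stood at 0.52 (adjusted p = 0.114).

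Of 14 regulators of NRF2 tested, none was called from 8 to 50 h, at 50 h against untreated cells or between the siRNAs. NFE2L2 itself had signals of 399 to 654 and stood at -0.12 ± 0.18 at 50 h against untreated cells (adjusted p = 0.769). KEAP1, with signals of 268 to 431, stood at -0.05 ± 0.17 (adjusted p = 0.910), and BACH1, a repressor of HMOX1, with signals of 134 to 318, at -0.30 ± 0.23 (adjusted p = 0.510). The signs of NFE2L2 and KEAP1 turned when single arrays were left out. These are transcript levels, and NRF2 is controlled mainly through protein stability. MAFG, a small MAF partner named after its value was seen, was called over the 3 D3 times together (0.65 ± 0.13, adjusted p = 0.0187). It was the 1 of the 14 called there, where 1.99% of all genes were called higher. At 8, 20 or 50 h against untreated cells MAFG was not called.

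In the thioredoxin, peroxiredoxin and glutaredoxin list, none of 22 genes tested was called from 8 to 50 h, and 1 was called higher and 2 lower at 50 h against untreated cells, with a median of -0.08. For all genes the shares at 50 h were 1.83% higher and 2.48% lower, with a median of -0.01. GLRX, a glutaredoxin that uses glutathione, had LacZi signals of 492 and 413 untreated and 535, 827 and 814 with D3, and p53i signals of 363 and 297 untreated and 290, 504 and 712 with D3. The 20 and 50 h arrays exceeded all untreated arrays, and the difference at 50 h was 0.95 ± 0.16 (adjusted p = 0.00787), or 0.75 without the p53i 50 h array, where it was not called (adjusted p = 0.197). PRDX4, the peroxiredoxin of the endoplasmic reticulum, stood at -0.42 ± 0.10 (adjusted p = 0.0304), and RRM1, the large subunit of the ribonucleotide reductase that thioredoxin serves, at -0.63 ± 0.13 (adjusted p = 0.0192). A second RRM1 probe set stood at -0.39 (adjusted p = 0.527). GLRX (-0.52 ± 0.11, adjusted p = 0.0227) and GLRX3 (-0.44 ± 0.10, adjusted p = 0.0313) were called lower with p53i, as were 3.11% of all genes. A second GLRX probe set stood at -0.30 between the siRNAs (adjusted p = 0.348) and at 0.69 at 50 h (adjusted p = 0.147). The other GLRX3 probe sets did not share a sign between the siRNAs, at -0.18 (adjusted p = 0.497), 0.15 (adjusted p = 0.765) and 0.08 (adjusted p = 0.889). Of the fits that left out 1 array, the calls at 50 h of PRDX4, RRM1 and GLRX remained in 2, 7 and 9 of 10. The calls of GLRX and GLRX3 between the siRNAs remained in 5 and 4 of 10. With the ACTB covariate GLRX (adjusted p = 0.155) and GLRX3 (adjusted p = 0.277) were not called between the siRNAs.

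Of 20 glutathione, superoxide and peroxide enzymes tested, GSR was again the 1 called from 8 to 50 h, GSR and GGCT (-0.40, adjusted p = 0.0220) were called lower at 50 h against untreated cells with a list median of 0.03, and GPX4 was called higher with p53i (0.30, adjusted p = 0.0390). Among 7 alpha-arrestins and MondoA partners, the relatives and regulators of TXNIP, none was called over D3 time. ARRDC4, the paralog that MondoA also drives, stood at -0.34 at 50 h against untreated cells (adjusted p = 0.297), with signals of 174 to 295, and ARRDC1 was called higher with p53i (0.37, adjusted p = 0.0149). Of 17 genes of the ATF4 amino acid stress response, ATF3, a stress-induced transcription factor, was called higher at 50 h against untreated cells (0.59, adjusted p = 0.0155), with a list median of -0.17, and none from 8 to 50 h. The other ATF3 probe sets stood at 0.65 (adjusted p = 0.313) and 0.27 (adjusted p = 0.645) at 50 h. For all genes the shares at 50 h were 1.83% higher and 2.48% lower, with a median of -0.01, and 3.38% were called higher with p53i. Of the fits that left out 1 array, the calls of GGCT, GPX4, ARRDC1 and ATF3 remained in 6, 3, 8 and 8 of 10. With the ACTB covariate GPX4 (adjusted p = 0.342) and ARRDC1 (adjusted p = 0.145) were not called between the siRNAs.

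The genes whose log2 signals over the 10 arrays were most like those of TXNRD1 were CST6 (Pearson r = 0.967), GDF15 (0.965), PDGFD (0.965), UPP1 (0.941) and PPP2CA (0.940). CST6, GDF15, PDGFD and UPP1 were called higher at 50 h against untreated cells, at 1.07 (adjusted p = 0.0101), 1.77 (adjusted p = 0.00568), 1.89 (adjusted p = 5.87e-04) and 1.25 (adjusted p = 0.0216), and PPP2CA was not (0.21, adjusted p = 0.208). Most like TXNIP were CYLD (0.978), CCNI (0.954), AKIP1 (0.944), FBXO32 (0.943) and NONO (0.934), of which none was called, the largest value being that of FBXO32 (-0.79, adjusted p = 0.0802). These correlations describe 10 arrays that share their scaling, siRNA and time, and the genes were picked from 12034 for their likeness.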

How the data were processed

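The authors deposited 1 intensity per probe set and array, which are MAS5 signals per the submitters' processing notes (version not given in the sources used here). Total RNA (6 ug per sample) was extracted with Trizol, per the labels' protocols. Names came from the array's annotation table, where 41091 carried 1 symbol, 1801 several and 11721 none. A check of gene IDs in RefSeq changed 0 symbols and found no row for 54. The 62 control probe sets were left out. The group of the p53i 8 h array came from its source name, since its title spells the siRNA differently.

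Signals were converted to log2(signal + 16), which understates changes of dim genes. The 12034 genes in the upper 50% of probe sets were fitted with limma 3.58.1 in R 4.3.3 (lmFit, then eBayes with a trend on intensity, two-sided tests), with siRNA and D3 time as terms and 5 residual degrees of freedom. P-values were adjusted over all genes by Benjamini-Hochberg at 0.05, and "called" means past that threshold. A lone array per siRNA and D3 time is assumed to vary like the others, and the number of arrays limits the precision. The members, lists and comparisons were chosen with earlier results of these data known. The genes named were the 10 members, at most 5 called genes per list, NFE2L2, KEAP1, BACH1 and ARRDC4, and the 5 genes most like TXNRD1 and TXNIP. MAFG, PGD, UGDH and CBR1 were named outside that rule. Alternatives covered scaling, offset, filter, probe sets, trend, group means, the replicate block, the ACTB ratio and each array left out.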

Additional observations from a re-analysis of the deposited data

How the results depend on the processing

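ABCC3 at 50 h against untreated cells kept its call in all 13 alternative settings (1.01 to 1.44) and all 10 fits without 1 array. From 8 to 50 h the 16 genes called became 6 with median centring or every probe set on its own, 5 with no offset or probe-set means, 4 with no filter, 9 with the upper 25% of probe sets, 2 with no trend, 0 with group means and 0 to 25 without 1 array. The 518 genes called at 50 h against untreated cells became 327 with no filter, 313 with probe-set means, 107 with no trend, 54 with group means and 46 to 930 without 1 array. Between the siRNAs the 781 became 518 with median centring, 473 with no filter, 355 with probe-set means, 164 with no trend, 51 with group means, 94 with the ACTB covariate, 106 without its 2 highest arrays and 179 to 1046 without 1 array. Over the 3 times the 529 became 345 with no filter, 294 with probe-set means, 88 with no trend, 52 with group means and 123 to 852 without 1 array. At 20 h the 71 became 41 with no filter or probe-set means, 16 with no trend, 9 with group means, 114 with the ACTB covariate, 7 without its 2 highest arrays and 7 to 196 without 1 array, and at 8 h the 21 became 12 with probe-set means, 5 with no trend, 4 with group means and 1 to 29 without 1 array. For the difference of the late step between the siRNAs the 0 became 0 to 1 without 1 array. Members called from 8 to 50 h became 1 with an offset of 64 (ABCC3) and 0 to 1 without 1 array. At 20 h against untreated cells the 1 member called higher became 0 with median centring, no offset, no filter, probe-set means, no trend, group means, every probe set on its own and without the 2 arrays of highest ACTB ratio, 2 with the ACTB covariate (TXNRD1 and HMOX1, with ABCC3 lost at an adjusted p of 0.0541) and 0 to 1 without 1 array, and members called lower became 1 (TXNIP) with median centring and the ACTB covariate and 0 to 1 without 1 array. At 50 h the 3 called higher became 1 with group means, 2 with probe-set means (TXNRD1 lost), no trend (AKR1B10 lost) and the upper 25% (AKR1B10 not tested), 4 with the ACTB covariate (HMOX1 gained) and 1 to 5 without 1 array, and the 1 called lower became 0 with quantile normalization, no offset, no filter, no trend, group means, every probe set on its own, and 0 to 1 without 1 array. At 8 h members called lower became 1 (TXNIP) with the ACTB covariate or without the arrays of highest ratio, and 0 to 1 without 1 array. Over the 3 D3 times the 3 called higher and 1 lower became 1 and 0 with no trend and with group means, those higher 2 with no filter or probe-set means and 4 (HMOX1 gained) with median centring, an offset of 64, the ACTB covariate and the block, and those lower 0 to 1 without 1 array. Between the siRNAs, members called higher became 1 with the ACTB covariate or without its 2 highest arrays and 0 to 1 without 1 array, and the 2 called lower became 0 with median centring, probe-set means, no trend, group means, the ACTB covariate and without its 2 highest arrays, 1 with no offset, no filter, the upper 25% and every probe set, 3 (TXN gained) with quantile normalization and the block, and 0 to 2 without 1 array. With every probe set on its own, the counts of members refer to each gene's brightest set. There the brightest set of TXNIP stood at -0.83 at 50 h against untreated cells (adjusted p = 0.0643). Its set 2 was called lower in that fit at 20 h (-1.26, adjusted p = 0.0499) and at 50 h (-1.61, adjusted p = 0.00568). The causes of these shifts were not tested. The replicate number, shared by the untreated arrays alone, was also tried as a block. Deviations of same-numbered untreated arrays correlated at 0.21 over 2 numbers, and no label states a shared day, so the numbers are not taken to pair samples. With the block 74 genes (2 members, ABCC3 at 1.03, adjusted p = 0.0282, and TXNRD1) were called from 8 to 50 h, 960 at 50 h against untreated cells, 1302 between the siRNAs, 955 over the 3 times, 280 at 20 h and 56 at 8 h, and 3 members higher and 1 lower at 20 h.

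Signs turned for small, uncalled values. Probe-set means gave -0.08 for GCLM and -0.29 for TXNIP from 8 to 50 h, 0.10 and 0.03 for GCLM at 8 and 50 h, 0.07 for BACH1 at 50 h, and -0.48 for TXNIP and 0.23 for ABCC3 in the difference of that step between siRNAs. Median centring gave -0.01 for GCLM and TXNIP from 8 to 50 h, -0.06 for GCLM and 0.00 for SRXN1 over the 3 times, 0.00 for NQO1 at 20 h, 0.03 for HMOX1 between the siRNAs, and -0.02 for GCLC and -0.03 for HMOX1 in the step between siRNAs. Quantile normalization gave -0.04 for TXNRD1 there and 0.02 for TXN at 8 h. HMOX1 between the siRNAs was 0.10 with group means, 0.00 with an offset of 64, 0.31 with the ACTB covariate and 0.23 without its 2 highest arrays, where TXNRD1 was 0.04 and 0.00. GCLM at 50 h was 0.01 with the covariate, and KEAP1 0.08 without those arrays. Without 1 array, values ranged from -0.20 to 0.26 for TXNIP and -0.27 to 0.34 for GCLM from 8 to 50 h. At 8 h they ranged from -0.06 to 0.02 for TXN, -0.15 to 0.00 for SRXN1, -0.03 to 0.16 for NQO1, -0.12 to 0.03 for GCLM and -0.13 to 0.02 for GCLC. At 50 h they ranged from -0.04 to 0.42 for SRXN1, -0.31 to 0.30 for GCLM, -0.44 to 0.20 for NFE2L2 and -0.26 to 0.16 for KEAP1. Between the siRNAs they ranged from -0.16 to 0.13 for HMOX1 and -0.17 to 0.01 for ABCC3, and over the 3 times from -0.07 to 0.13 for GCLM. With 2 arrays per D3 time, signals near the limit of 35.3 and small differences were not resolved.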
